A study of Arabidopsis thaliana with 37 samples.

Results

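Seedlings of Arabidopsis thaliana carrying the ago1-10 allele of ARGONAUTE1 were compared with seedlings of the wild type Ler, both 9 days old. The comparison rests on 7 of the 37 one-colour Affymetrix arrays of the series, chosen by the background and the age in their labels, 4 with ago1-10 and 3 with Ler. Biotin-labelled cRNA was made from total seedling RNA, and each array carries 8247 probe sets. The other 9-day groups used below are wild-type Col (3 arrays) and the allele ago1-11 (4 arrays), and ago1-10 (3 arrays) and a first set of Ler (3 arrays) were also measured at 21 days. Strain codes on the labels put ago1-10 replicates 1 to 3 under MR44, replicate 4 under MR49 and all 9-day Ler arrays under MR37. The 9-day ago1-11 arrays each carry a different code number (51, 53, 54 and 57), and the 9-day Col arrays share code number 38. The labels do not give the wild type in which ago1-10 arose, growth conditions or how many seedlings were pooled, and p-values measure only the spread between arrays.

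ARGONAUTE1 is the protein that binds most plant microRNAs and uses them as guides to cut or silence matching messenger RNAs. Targets of plant microRNAs include regulators of leaf polarity and flower development and genes of copper, sulfur and auxin metabolism, and strong loss of the protein gives narrow, radial leaves. When a microRNA acts mainly through cutting, loss of ARGONAUTE1 activity is known to raise the level of the target transcript. AGO1 itself was not analysed here.

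Testing was limited to 6049 of the 8247 probe sets, those with enough signal. A probe set was called when its Benjamini-Hochberg adjusted p in a limma model of all 37 arrays was under 0.05. Every log2 difference below is ago1-10 minus Ler unless another group is named, and every level is a scaled intensity. The labelled tissue was checked against marker genes. Of 23 leaf and green-tissue markers 7 were measured, and their summed intensity lay between 11095 and 15624 on the ago1-10 arrays and between 23907 and 30111 on the Ler arrays. The single measured root marker of 22, BGLU21, ranged from 795 to 1549.8 in ago1-10 and from 985 to 1705 in Ler. The 5 measured flower and pollen markers of 24 summed to 136 to 219 and 143 to 165, with ROXY1, ACT12 and AMS near background in both genotypes. The 2 measured senescence markers of 10 summed to 52 to 70.1 and 35.8 to 108, but differed in direction. WRKY6 averaged 64.9 in Ler and 38.6 in ago1-10 (adjusted p = 0.24, limma). WRKY53 averaged 7.77 and 19.9 (adjusted p = 0.076), and neither was called. No seed or meristem marker was measured.

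In 9-day ago1-10 seedlings 388 probe sets rose and 571 fell, which is 6.41% and 9.44% of those tested and 15.9% in all. Of these, 250 rose and 379 fell at least 2-fold, and 50 rose and 74 fell at least 4-fold. The median difference was 1.13 among called probe sets that rose and -1.18 among those that fell, against -0.01 over all tested. All 4 ago1-10 arrays lay on one side of all 3 Ler arrays for 25.8% of the probe sets tested, and for 847 of the 959 called. A single gene is listed for 392 of the called probe sets, 178 higher and 214 lower. The other 567 have no single listed gene and stay unnamed, among them 73 of the 124 that changed at least 4-fold. Ler arrays weighed on the count, which was 611 without Ler replicate 2 and 537 without Ler replicate 3.

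**Figure D1:**
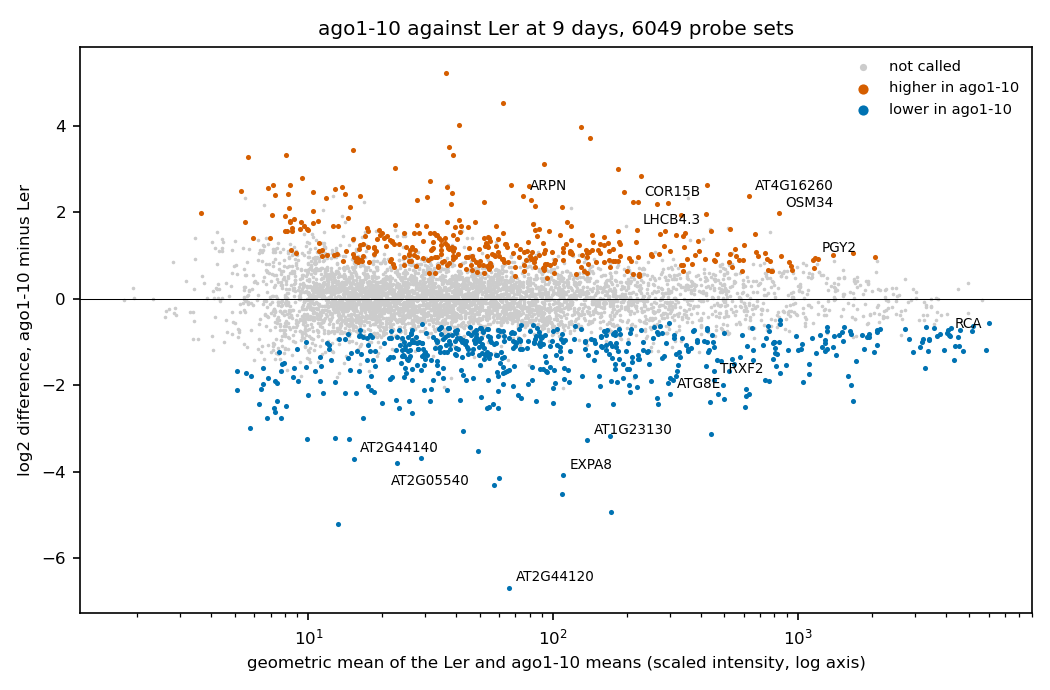
Each point is 1 of the 6049 probe sets tested, with the level on a log axis (geometric mean of the Ler and ago1-10 means) and the log2 difference, ago1-10 minus Ler at 9 days, on the vertical axis. Orange points rose (388), blue points fell (571) and grey points were not called, and most called points at the bright end lie below 0.

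The lowest difference of all belonged to AT2G44120. Its Ler arrays read 765, 574 and 567, while the ago1-10 arrays read 3.39, 10.1, 2.09 and 6.92. Every ago1-10 array was under 12.8, the intensity a probe set had to exceed on 3 arrays to be tested, so the transcript was near background in all 4 and the groups did not overlap. The log2 difference was -6.68 (SE 0.34, adjusted p = 1.5e-16, limma) and -4.91 with 16 in place of the 1.23 added before the logarithm, so its size depends on that constant. The gene was bright in each other 9-day group, at 709.8 in Col and 643 in ago1-11. In ago1-10 at 21 days it again stood near background, at 5.54 against 464 in Ler.

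The next gene along the chromosome in the TAIR10.1 gene table, AT2G44140, moved with it. Ler arrays read 58, 39.3 and 49.8, and ago1-10 arrays 2.37, 0.993, 8.91 and 1.43, again without overlap and near background in ago1-10. Its difference was -3.70 (adjusted p = 6.8e-09) or -1.75 with 16 added. Among the 5 genes on either side of AT2G44120, ARL and AT2G44090 were the other genes measured. ARL, a gene of organ growth, averaged 132 in Ler and 139.8 in ago1-10 (difference 0.05, adjusted p = 0.94). AT2G44090 averaged 26.4 and 27.3 (0.04, adjusted p = 0.95), and both gave overlapping arrays. The pair AT2G44120 and AT2G44140 was also lower than in ago1-11 (-6.65 and -3.51) and lower than in Col (-6.85 and -4.15). These comparisons share the ago1-10 arrays.

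Group counts below can be set beside all loci tested, of which 6.32% rose and 7.8% fell. No group was tested against these shares. Among the 6 microRNA targets in a group formed from gene names, which is not complete, 1 rose and 0 fell, with a median difference of -0.09. Limma's unadjusted p was under 0.05 for 0 of the 6 in the lower direction, as for 0 of the small RNA and leaf polarity genes, and in the higher direction for 0 of the beta-glucosidase and lectin, ATG8 and auxin genes described below. The gene that rose was ARPN, which encodes plantacyanin, a small blue copper protein whose transcript is a known microRNA target. On its brightest probe set the Ler arrays read 26.1, 32.1 and 34.6, and the ago1-10 arrays 288, 123, 124 and 169. Every ago1-10 array was above every Ler array, with means of 30.9 ± 4.34 (SD, n = 3) and 176 ± 77.9 (SD, n = 4) and a difference of 2.38 (SE 0.38, adjusted p = 3.7e-05, limma). Its other probe sets gave 3.33, from a Ler mean of 11.3 under 12.8, and 2.58. With 16 added the differences were 1.96 on the brightest probe set and 2.28 and 1.79 on these. ARPN stood at 48.9 in ago1-11 and 18.3 in Col, and ago1-10 was higher than both (1.77, adjusted p = 0.0013, and 3.11, adjusted p = 1.2e-07).

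The other targets of this group were not called at 9 days. CCS, the copper chaperone of superoxide dismutase, averaged 299 in Ler and 280.3 in ago1-10 (difference -0.10). The ATP sulfurylase genes APS3 and APS4, of sulfate assimilation, gave -0.21 and -0.07, and PHV, an HD-ZIP factor of the upper leaf side, gave -0.24. LCR, an F-box gene of leaf curling, read 55, 113 and 24.8 in Ler and 74.7, 75, 100.2 and 94.1 in ago1-10, a difference of 0.65 with overlapping arrays (adjusted p = 0.23). Without Ler replicate 2, the highest of these 3, LCR was called (1.18, adjusted p = 0.033), and it was higher than in Col (1.29, adjusted p = 0.0067). APS4 differed between ages. It averaged 315 in Ler and 295 in ago1-10 at 9 days, but 121 and 536 at 21 days, a change in difference of -2.19 (adjusted p = 0.00081).

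Genes of the small RNA pathway and of leaf polarity had 1 of 6 members risen and 0 fallen, with a median of 0.18. The riser was PGY2, a ribosomal protein gene whose mutants enhance leaf polarity defects. It read 933, 800.0 and 804 in Ler and 2013, 1346, 1556 and 1603 in ago1-10, without overlap (0.93, adjusted p = 0.0013). It was also higher than in Col (0.90, adjusted p = 0.00084) and than in ago1-11 (0.67, adjusted p = 0.015). PGY1, its ribosomal protein partner, read 453, 455 and 439 against 962, 505, 600.1 and 697, also without overlap, but did not pass (0.58, adjusted p = 0.26). SERRATE (SE), a cofactor of microRNA processing, averaged 102 and 112, and SQN, a chaperone that aids ARGONAUTE1, 17 and 20.7, and neither passed. YAB3, a YABBY factor of the lower leaf side, averaged 91 in Ler and 62.4 in ago1-10 (-0.55, adjusted p = 0.19). It was lower than in ago1-11 (-1.03, adjusted p = 0.0072) and than in Col (-0.87, adjusted p = 0.018). A second, dimmer YAB3 probe set was not called against Ler (-0.17, adjusted p = 0.84), ago1-11 (-0.60, adjusted p = 0.34) or Col (-0.42, adjusted p = 0.52).

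Outside these lists, the named genes are the 15 highest and the 15 lowest differences among called probe sets with 1 gene whose arrays do not overlap, ranked with 16 added so that dim probe sets do not lead. Absence of overlap was a condition of entry, so it is no separate evidence for these probe sets. That also holds for ARPN, AT2G44120, OSM34, EXPA8, EXGT-A3 and ATG8E, which are among them. The 15 highest stand for 12 loci, with ratios of group means from 3.42 to 10.7. AT4G33720 led this order. It read 70, 252 and 210.1 in Ler and 1368, 1150.4, 662 and 847 in ago1-10 (2.64, adjusted p = 0.031). The call ended without Ler replicate 1 (adjusted p = 0.15), Ler replicate 3 (0.062), ago1-10 replicate 1 (0.07) or ago1-10 replicate 2 (0.063), and a second probe set gave 1.64 (adjusted p = 0.21).

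AT4G16260 was bright in both genotypes and rose from 172, 488 and 190.1 to 1763, 1886, 905 and 988 (2.38, adjusted p = 0.0029). AT4G36430 rose from 20.7, 37.4 and 33.5 to 329, 165, 134 and 163 (2.60, adjusted p = 2.4e-05). For AT4G36430 ago1-10 replicate 1 was the highest array. AT2G38390 rose from 122 ± 37.3 (SD, n = 3) to 569 ± 223 (SD, n = 4), a difference of 2.18. AT2G18150 (1.77), AT1G30760 (2.35, from a Ler mean of 12.3 near background) and AT1G78820 (1.93 and 2.13 on both its probe sets) also rose. AT1G65500 read 62, 160.1 and 174 in Ler and 1235, 332, 375 and 633 in ago1-10 (2.21, adjusted p = 0.011), and without Ler replicate 1 it was not called (1.74, adjusted p = 0.076). Its level was 38.3 in ago1-11 and 21.3 in Col.

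**Figure D2:**
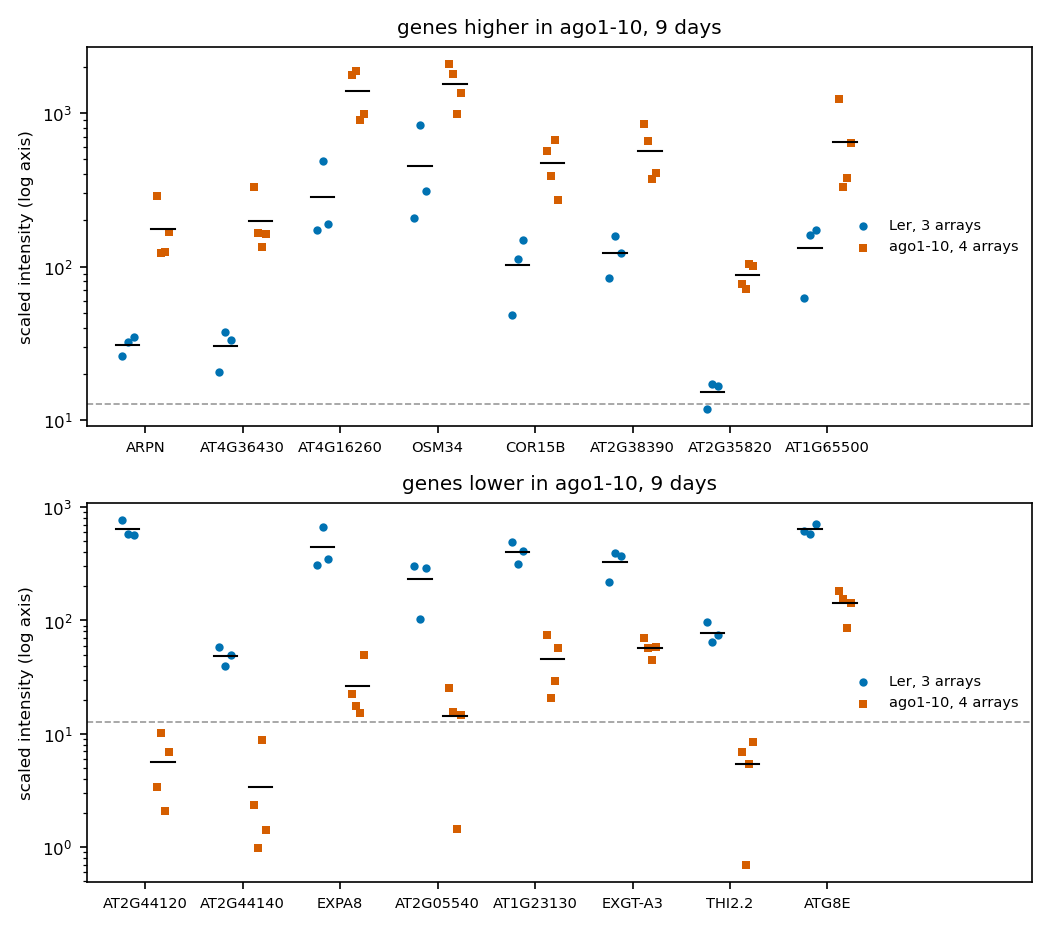
Scaled intensity on each array (log axis) for 8 genes higher and 8 genes lower in ago1-10, with blue circles for the 3 Ler arrays, orange squares for the 4 ago1-10 arrays, black bars at group means and a dashed line at 12.8, the level used to select probe sets. AT2G44120, AT2G44140 and THI2.2 lie under the dashed line on every ago1-10 array and above it on every Ler array.

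Members of a group of defence-related genes moved in both directions. Of the 11 genes in the pathogenesis-related and antimicrobial group, 2 rose and 1 fell, with a median of 0.48. This group was formed from gene names and is not complete. AT4G33720 and AT4G16260, which rose, were not in it. OSM34, an osmotin-like protein, read 208, 829 and 311 in Ler and 2076, 1803, 987 and 1345 in ago1-10. The groups did not overlap, although Ler replicate 2 came close to the lowest ago1-10 array (1.98, adjusted p = 0.0022). PR-1-LIKE rose from 14.1 to 46 (1.52, adjusted p = 0.007), and its call ended without Ler replicate 1 (1.18, adjusted p = 0.061). THI2.2, a thionin, fell from 96, 64.4 and 73.8 to 6.9, 0.695, 5.43 and 8.5, near background, a difference of -3.79 (adjusted p = 4.6e-05) or -2.14 with 16 added. The defensin gene LCR67 averaged 5.86 and 39.2 but did not pass (2.24, adjusted p = 0.075), and the chitinase genes CHI (0.66) and ChiC (0.08) were not called.

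WRKY and zinc finger factors had 1 of 10 members risen and 1 fallen. WRKY22, a factor of the immune response, read 28.3, 25.5 and 26.7 in Ler and 68.1, 51.3, 58.7 and 34.4 in ago1-10 (0.91, adjusted p = 0.0081). ZAT7, a zinc finger factor, fell from 16.3 to 1.94 on its brighter probe set (-2.37, adjusted p = 0.0057), but both levels are low, the difference shrank to -0.82 with 16 added, and the call ended without Ler replicate 3 (-2.05, adjusted p = 0.053). Against Col, ZAT7 on this probe set gave -0.35 and was not called. Among 11 beta-glucosidase and jacalin lectin genes 0 rose and 1 fell, BGLU33 (-1.96, adjusted p = 0.0034), from 13 to 2.68, or -0.62 with 16 added.

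Cold- and drought-regulated genes had 1 of 18 members risen and 2 fallen, with a median of -0.01. COR15B, a chloroplast protein induced by cold, rose from 48.1, 112 and 149 to 562, 386, 667 and 272 (2.24, SE 0.35, adjusted p = 3.3e-05). COR47, a dehydrin, went from 1104, 1289.8 and 1238 to 967, 551, 392 and 292 (-1.28, adjusted p = 0.0085), with ago1-10 replicate 1 close to the lowest Ler array. Its dimmer probe set fell as well (-1.10, adjusted p = 0.032), but its call ended without Ler replicate 2 (adjusted p = 0.11), Ler replicate 3 (0.1), or ago1-10 replicate 3 or 4 (0.12 each). KIN2, another cold-induced gene, fell from 1274, 2738 and 1598 to 1057, 769, 869 and 649 (-1.11, adjusted p = 0.011), and without Ler replicate 2, its highest array, it was not called (-0.79, adjusted p = 0.12). Against Col KIN2 gave -0.31 (adjusted p = 0.49). COR15B averaged 498 in ago1-11 (adjusted p = 0.81 for the difference between alleles) and stood at 112 in Col.

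Genes of light capture and carbon fixation were mostly lower in ago1-10. Of 24 such genes measured, 10 fell and 2 rose, 18 had a negative difference, and the median was -0.79. The share that fell, 41.7%, compares with 9.44% of all probe sets tested. Bright probe sets fell more often in general. Of the 209 with a mean of at least 1000 over all 37 arrays, 75 fell (35.9%) and 5 rose, with a median of -0.39, against 6.78% fallen among the 4423 with a mean under 100. Of the 10 photosynthesis genes that fell, 8 are that bright, and how far level accounts for their fall was not tested. With quantile normalization, which gives every array the same distribution, 4 of the 24 genes fell and the median was -0.41. In whole-seedling RNA, fewer green cells and less RNA per green cell cannot be told apart.

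The light-harvesting gene LHCB4.1, of the photosystem II antenna, read 5088, 7225 and 6798 in Ler and 3317, 2376, 2749 and 3571 in ago1-10. The groups did not overlap, with means of 6371 ± 1131 (SD, n = 3) and 3003 ± 541 (SD, n = 4) and a difference of -1.09 (adjusted p = 0.0026), which quantile normalization reduced to -0.39 (adjusted p = 0.19). LHB1B2, of the main antenna complex, fell from 3878, 5219 and 4366 to 2284, 1438, 1584 and 2451 on its brighter probe set (-1.24, adjusted p = 0.00068) and fell by 2.52 on a dimmer one. PSAE-1, a subunit of photosystem I, fell on all 3 of its probe sets (-1.92, -1.09 and -1.08), and on the brightest of them quantile normalization gave -0.43 (adjusted p = 0.14). The photosystem II genes PSBW (-0.93), PSB27 (-0.85, adjusted p = 0.049) and PSBY (-0.68, adjusted p = 0.045) and NdhS, of the chloroplast NDH complex (-1.02), also fell, and PSAN (-0.86, adjusted p = 0.072) did not pass. The first 3 were near the threshold. With quantile normalization PSBW, PSB27 and PSBY were not called (adjusted p = 0.085, 0.074 and 0.53). PSB27 lost its call without any 1 array but Ler replicate 3 and PSBY without any but ago1-10 replicate 1 (-0.55 and -0.50 without Ler replicate 2), PSBW without Ler replicate 2 or 3 or ago1-10 replicate 2 (-0.82 to -0.93), and NdhS without Ler replicate 1 (-0.84, adjusted p = 0.077).

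One antenna gene went the other way. LHCB4.3, a minor antenna protein of the same family as LHCB4.1, read 76.8, 148 and 153 in Ler and 506, 259.9, 384 and 352 in ago1-10, without overlap (1.59, adjusted p = 0.0015). It was also higher than in Col (2.58, adjusted p = 6.7e-07), where it averaged 60.6, and did not differ beyond error from ago1-11 (268, adjusted p = 0.21). LHCB4.3 is dim beside LHCB4.1, but levels of different probe sets cannot be compared.

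In carbon metabolism of the plastid, TRXF2, a thioredoxin that activates Calvin cycle enzymes in light, fell from 809.9, 926 and 820.3 to 227, 190.2, 197 and 339.9 (-1.87, SE 0.29, adjusted p = 2.2e-05). HPR, the hydroxypyruvate reductase of photorespiration, fell from 1235, 1042 and 1432 to 502, 459, 551 and 558 (-1.25, adjusted p = 0.0043). RCA, Rubisco activase, fell from 5349, 5689.5 and 5445 to 2954, 2932, 2935 and 3551 (-0.83, adjusted p = 0.0016). None of these 3 genes had overlapping arrays, and with quantile normalization RCA was not called (-0.22, adjusted p = 0.3). The Calvin cycle genes PRK (-0.69) and SBPASE (-0.75) and the peroxidase gene TAPX (-0.96) were lower on every ago1-10 array without passing. MDH, a plastid malate dehydrogenase, rose from 185 to 431 (1.22, adjusted p = 0.023), a call that ended without Ler replicate 2 (adjusted p = 0.051), Ler replicate 3 (0.12) or ago1-10 replicate 1 (0.054).

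Against Col the same 24 genes had 2 fallen, TRXF2 (-1.31) and HPR (-1.03), 3 risen and a median of -0.38. Col levels lay between those of Ler and ago1-10 for LHCB4.1 (4171), LHB1B2 (2736), PSAE-1 (4192 on its brightest probe set) and RCA (3937). On these probe sets the 4 genes were called against Ler and not against Col (adjusted p from 0.12 to 0.25). On its dimmer probe set LHB1B2 was called against Col too (-1.28, adjusted p = 0.02). The dimmer PSAE-1 probe sets were not (adjusted p = 0.42 and 0.19). Both comparisons use the same ago1-10 arrays. In ago1-11 at 9 days 0 of the 24 genes fell against Ler by limma, with 3 lower at an unadjusted p under 0.05 (median -0.10), and ago1-10 was lower than ago1-11 for 7 and higher for 1. At 21 days 16 fell and 1 rose in ago1-10 (median -1.27), and the difference between genotypes changed between ages for 0 of the 24 by limma, with 3 at an unadjusted p under 0.05. Of the 6 tetrapyrrole and carotenoid genes 1 fell, LYC, lycopene cyclase (-0.72, adjusted p = 0.023). Its call ended without any one of the Ler arrays (adjusted p from 0.05 to 0.072) or ago1-10 replicate 2 (0.074), and against Col it gave 0.04. A second, dimmer LYC probe set gave 0.04 against Ler (adjusted p = 0.96).

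**Figure D3:**
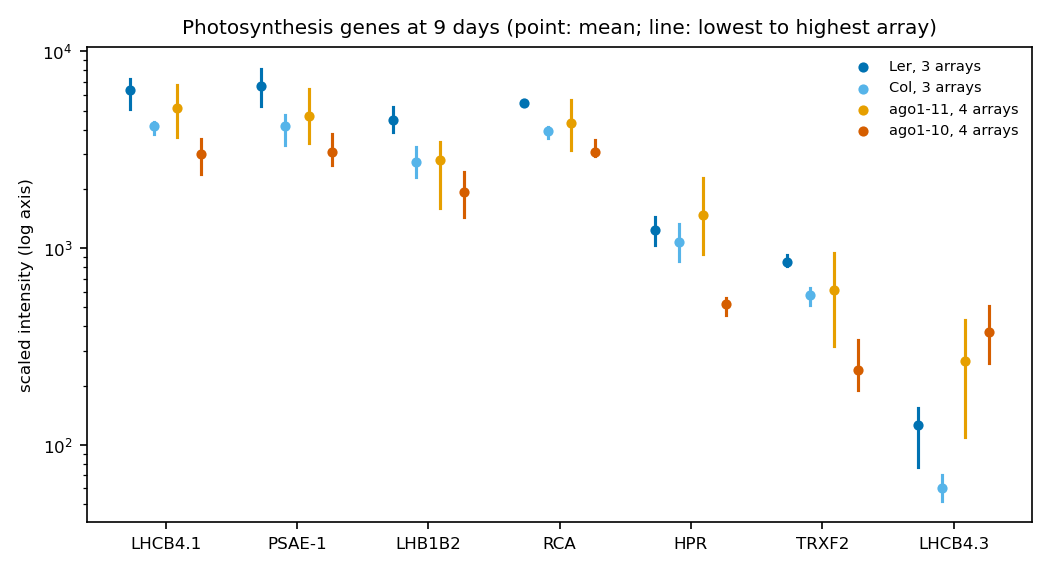
Scaled intensity (log axis) of 7 photosynthesis genes in the 4 genotypes at 9 days, each point a group mean and each line the range from the lowest to the highest array. For LHCB4.1, PSAE-1, LHB1B2 and RCA the Col means lie between Ler and ago1-10, HPR and TRXF2 are lowest in ago1-10, and LHCB4.3 is highest there.

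Among 31 cell wall genes 1 rose and 4 fell, with a median of -0.12. Over all loci tested 6.32% rose and 7.8% fell, and the group was not tested against these shares. EXPA8, an expansin, which loosens walls during growth, fell from 309, 661 and 351 to 22.5, 17.6, 15.2 and 49.4 (-4.08, adjusted p = 3e-05, or -3.42 with 16 added). EXGT-A3, an enzyme that cuts and joins xyloglucan, fell from 219, 389.9 and 369 to 69.4, 57.1, 45.1 and 58.2 (-2.45, adjusted p = 6e-06). Neither gene had overlapping arrays, and EXPA8 was also low in ago1-10 at 21 days (33.4 against 285 in Ler). ATPMEPCRD, of the pectin methylesterase family, fell from 106 to 31.3 (-1.71, adjusted p = 1.6e-05). XTH33, another xyloglucan enzyme, fell from 11.6 to 3.49 (-1.51, adjusted p = 0.027), and both XTH33 means are under 12.8. Against Col XTH33 gave 1.01 (adjusted p = 0.12) and at 21 days 1.75 (adjusted p = 0.012), both of opposite sign. XTH33 was not called without Ler replicate 1 or 2 or ago1-10 replicate 1 or 3 (adjusted p from 0.059 to 0.11). TBL26, of a family of wall-acetylating proteins, rose from 12.5 to 30.2 (1.21, adjusted p = 0.009, or 0.70 with 16 added). Its call ended without Ler replicate 2 (1.06, adjusted p = 0.059). The other 6 measured expansin genes, among them EXPA15 (0.91, adjusted p = 0.054) and EXPA4 (0.06), were not called.

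The remaining low end held genes of various kinds. AT2G05540 read 305, 103 and 288 in Ler and 25.6, 15.5, 1.46 and 14.8 in ago1-10 (-4.16, adjusted p = 3.6e-05, or -2.97 with 16 added). AT1G23130 fell from 493, 315 and 407 to 75.1, 20.6, 29 and 57.5 (-3.27, adjusted p = 2.2e-08). ECS1 fell from 413, 1323 and 1113 to 374, 96.7, 72.3 and 255 (-2.39, adjusted p = 0.0051), where Ler replicate 1 and ago1-10 replicate 1 stood close together. AT2G32150 (-2.43), AT4G33550 (-2.29), AT2G16586 (-2.21), AT1G49500 (-2.09) and AT3G15450 (-1.90) completed the list, and the call of AT2G16586 ended without Ler replicate 3 (-1.80, adjusted p = 0.058). Of the 30 probe sets highest or lowest, 27 kept their call with each of the 7 arrays left out in turn, the exceptions being AT4G33720, AT1G65500 and AT2G16586. These 30 were chosen by calls, absence of overlap and size on the same arrays, which favours keeping a call. Over all 71 named calls, 45 were kept.

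ATG8 proteins coat the membranes that form during autophagy. Of the 6 genes measured, 0 rose and 2 fell. ATG8E fell from 613, 582 and 709.6 to 181, 156, 86.2 and 142 (-2.20, adjusted p = 4e-05), without overlap. ATG8F fell from 236 to 112 (-1.08, adjusted p = 0.024), and its call ended without Ler replicate 2 (adjusted p = 0.059), Ler replicate 3 (0.11), ago1-10 replicate 2 (0.059) or ago1-10 replicate 3 (0.056) and with quantile normalization (-0.94, adjusted p = 0.058). The other members, APG8A (-0.12), ATG8B (0.06), ATG8C (-0.74) and ATG8D (0.57), were not called. Among 12 genes of vacuolar processing enzymes and serine carboxypeptidases, GAMMA-VPE fell from 348 to 125 (-1.46, adjusted p = 0.00075) and SCPL49 rose from 173 to 256 (0.56, adjusted p = 0.027), the latter not called without Ler replicate 2 (adjusted p = 0.13), Ler replicate 3 (0.092) or ago1-10 replicate 3 (0.066). Of 6 vacuolar proton pump genes 0 passed limma's threshold and 1, VHA-A1 (0.84), had an unadjusted p under 0.05, and the lowest difference was -0.54.

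Of 9 auxin genes 1 fell and 0 rose, with a median of -0.32. HAT2, a homeodomain factor induced by auxin, read 54.4, 45.1 and 51.6 in Ler and 17.9, 19.6, 20.1 and 15.3 in ago1-10 (-1.41, SE 0.22, adjusted p = 2.7e-05). It was also lower than in Col (-1.74) and than in ago1-11 (-0.66, adjusted p = 0.029). The auxin-conjugating gene GH3.3 averaged 20.1 and 7.17 without passing (-1.71, adjusted p = 0.053). Of 18 UDP-glycosyltransferase genes, whose enzymes attach sugars to hormones and other small molecules, 2 rose and 4 fell. UGT72E1, which acts on lignin precursors, fell from 261, 528 and 237 to 94, 99.4, 81.2 and 68.2 (-1.90, adjusted p = 0.00023), but was not called against Col (-0.70, adjusted p = 0.14). UGT74D1 (-1.43, or -0.75 with 16 added), UGT73B1 (-1.57) and UGT84A3 (-0.91) fell, and UGT71C1 (1.35, or 0.76 with 16 added) and UGT71D1 (0.79) rose. Only UGT72E1 among these 6 kept its call with each of the 7 arrays left out. UGT74D1 lost it without Ler replicate 2 or ago1-10 replicate 1 (-1.07 and -1.13), UGT71C1 without Ler replicate 3 or ago1-10 replicate 2 (0.91 and 1.11), UGT71D1 without any 1 array but Ler replicate 2 or ago1-10 replicate 3, UGT73B1 without any but ago1-10 replicate 4, and UGT84A3 without any but replicate 1 of either genotype, at adjusted p from 0.051 to 0.19.

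Other groups had few calls. Of 10 genes for RNA polymerase subunits and splicing 2 rose, NRPA1, the largest subunit of RNA polymerase I (1.26, adjusted p = 0.01), and ATU2AF35A, a splicing factor (0.87, adjusted p = 0.014). Without Ler replicate 3 neither was called (adjusted p = 0.12 and 0.18), nor was ATU2AF35A without Ler replicate 2 (0.077). AT2G26690, listed among nitrate transporters, fell from 262 to 108 (-1.28, adjusted p = 0.0015), 1 of 12 transporter genes measured, and against Col it gave -0.34 (adjusted p = 0.41). TUB6, a beta-tubulin, fell from 421, 887 and 484 to 299.7, 261, 279 and 301 (-0.99, adjusted p = 0.0078), and without Ler replicate 2, its highest array, it was not called (-0.66, adjusted p = 0.12). Against Col TUB6 gave -0.20 (adjusted p = 0.62). Over all 24 groups, formed from gene names, 248 different genes were measured, of which 16 rose and 33 fell, with a median difference of -0.04. Over all loci tested, 6.32% rose and 7.8% fell.

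**Figure D4:**
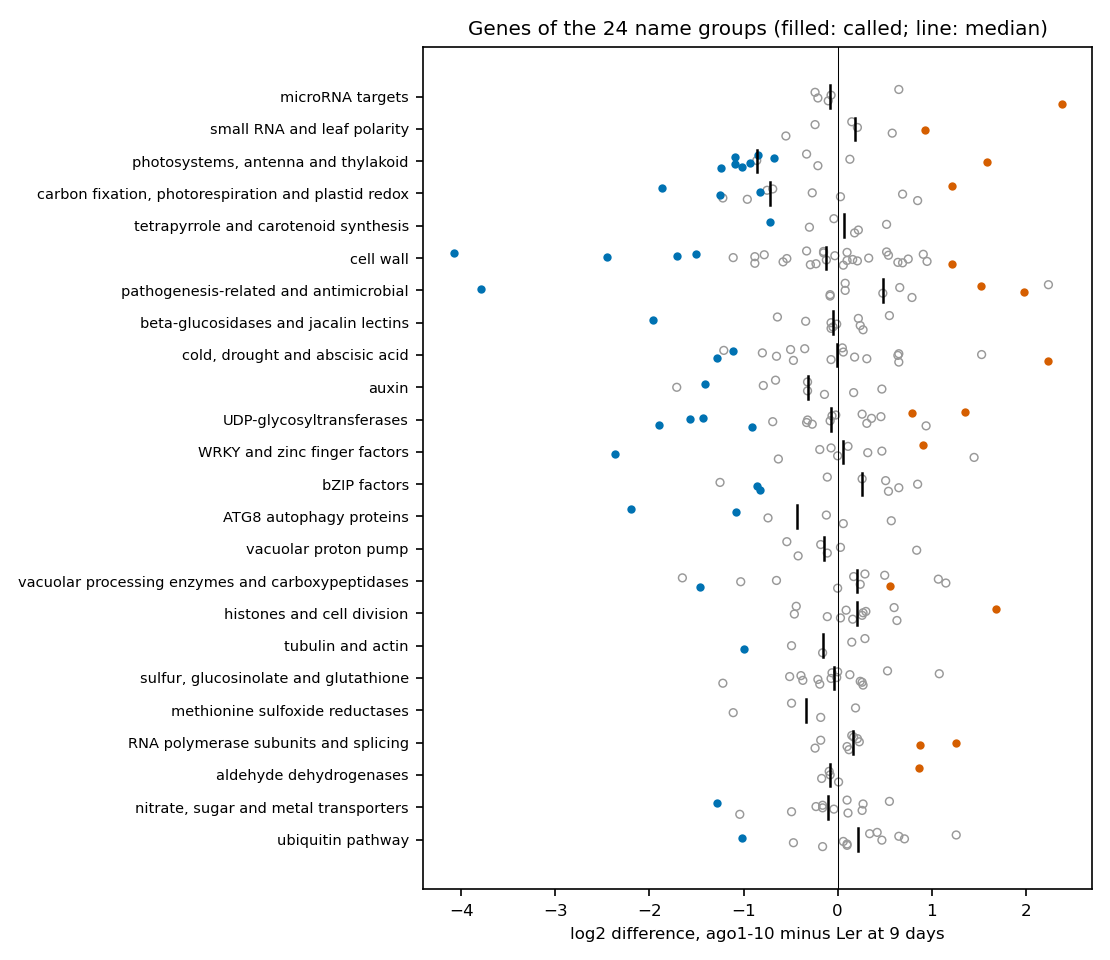
Log2 difference at 9 days, ago1-10 minus Ler, for the genes of 24 name groups, where orange points rose, blue points fell, open points were not called and black lines are medians. Both photosynthesis groups have medians of -0.85 and -0.72, and the other medians lie between -0.43 and 0.48.

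At 21 days the same genotypes were compared on other arrays, and the difference between both effects was tested as an interaction. It was called for 294 probe sets, 4.86% of those tested, but single arrays moved this count. It was 119 to 169 without Ler replicate 2 or 3 or ago1-10 replicate 3 at 9 days, or without Ler replicate 1 or 3 or ago1-10 replicate 1 or 2 at 21 days, and 473 and 471 without Ler replicate 1 at 9 days and ago1-10 replicate 3 at 21 days. Of the 959 probe sets called at 9 days 105 were among them, and in 104 of these the effect at 21 days was nearer 0 or of opposite sign, a direction that selection at 9 days favours. COR15B gave 2.24 at 9 days and -0.93 at 21 days (change 3.17, adjusted p = 0.00043), since its Ler level was 103 at 9 days and 639 at 21 days. AT1G23130 fell less at 21 days (373 against 623), and AT2G32150 was level there (325 against 334). EXGT-A3 and ATG8E, both low at 9 days, gave -0.71 and -0.45 at 21 days. ATPMEPCRD was high on the 9-day Ler arrays alone among these 4 groups, with 28.1 and 27 in ago1-10 and Ler at 21 days. AT2G35820 stood at 15.2 in Ler and 88.5 in ago1-10 at 9 days, and at 49.2 and 73.3 at 21 days. For ARPN, AT2G44120, EXPA8, THI2.2 and TRXF2 the change between ages was not called (adjusted p from 0.59 to 0.92).

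**Figure D5:**
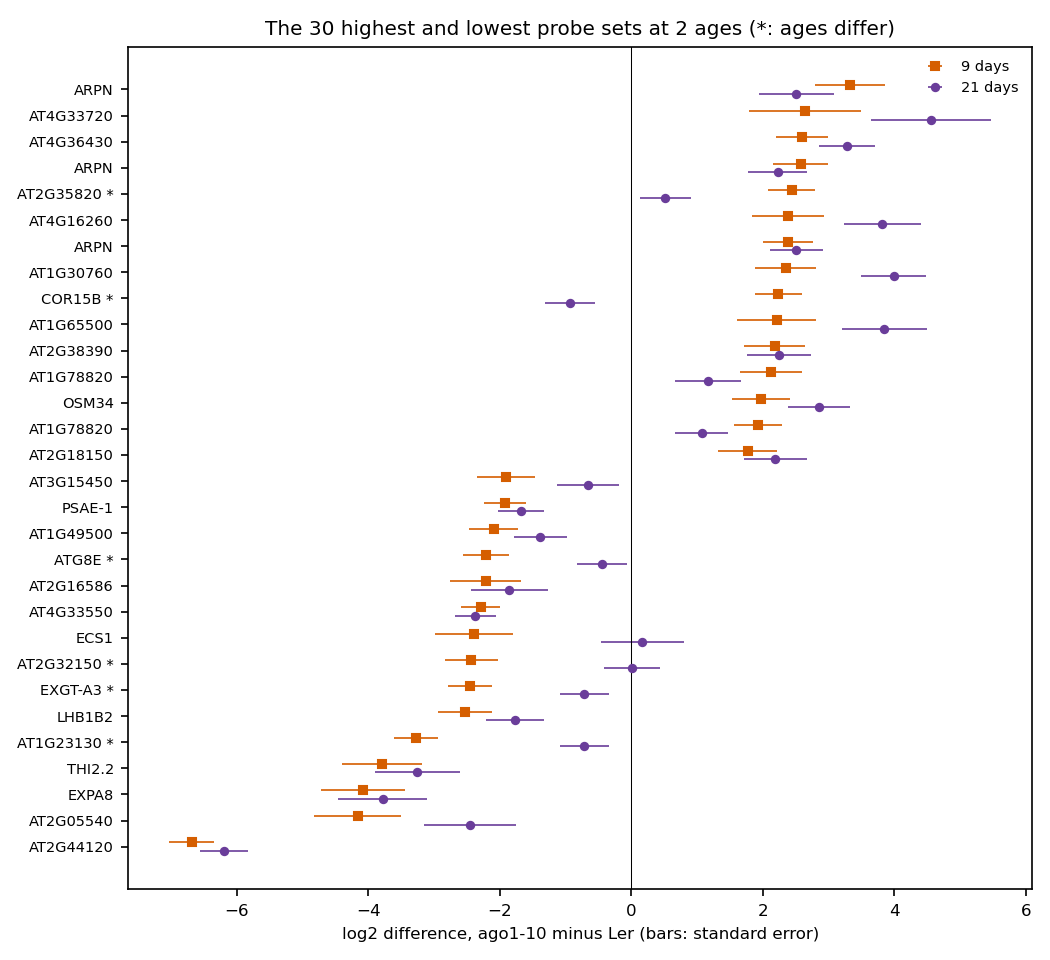
Log2 differences, ago1-10 minus Ler, at 9 days (orange squares) and 21 days (purple circles) for the 30 probe sets highest or lowest at 9 days, with standard errors, and an asterisk where the change between ages was called. COR15B and AT2G35820 at the top and AT1G23130, EXGT-A3, AT2G32150 and ATG8E at the bottom carry an asterisk.

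The 2 alleles were compared directly at 9 days. Between ago1-10 and ago1-11, 808 probe sets differed, 13.4% of those tested, 405 higher and 403 lower in ago1-10. Leaving out ago1-10 replicate 1 gave 492, ago1-11 replicate 1 439 and ago1-11 replicate 4 424. Each ago1-11 array carries its own strain code. Correlations of log2 values between single arrays ran from 0.869 to 0.962 for ago1-10 with ago1-11, against 0.938 to 0.958 among the ago1-10 arrays. Of the 15 highest named probe sets 9 differed between alleles and of the 15 lowest 12 did. Over all 959 probe sets called against Ler, 383 differed between alleles, 382 of them with the same sign as against Ler. Both comparisons share the ago1-10 arrays by which these probe sets were chosen, which favours such differences. AT1G65500 was higher than in ago1-11 by 4.02 (adjusted p = 1.5e-05), AT4G16260 by 2.08 and AT2G38390 by 1.62. Both alleles did not differ beyond error for COR15B (472 and 498), AT2G35820 (88.5 and 95.7), UGT72E1 (85.7 and 95.2) and WRKY22 (53.1 and 61.7), with differences from -0.17 to -0.11 (adjusted p from 0.67 to 0.87). AT4G33550 stood apart in Ler, with 157 ± 15.1 in Ler (SD, n = 3), 33.4 in ago1-10, 29.8 in ago1-11 and 32.6 in Col.

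Because the labels do not name the wild type of the allele, Col was set beside Ler. Between ago1-10 and Col 1495 probe sets differed, 24.7% of those tested. Correlations of log2 values between single arrays ran from 0.88 to 0.924 for ago1-10 with Ler and from 0.842 to 0.882 for ago1-10 with Col, against 0.885 to 0.931 for Ler with Col. Of the 71 named probe sets called against Ler, 43 were called the same way against Col. These include 13 of the 15 highest, all but the pair for AT1G78820, and 13 of the 15 lowest, all but AT4G33550 and a PSAE-1 probe set. Over all 959 probe sets called against Ler, 527 were called the same way against Col and 17 the opposite way. Both comparisons use the same ago1-10 arrays, and the highest and lowest were chosen by those arrays, which favours agreement. ATPMEPCRD (26.8 in Col), AT4G33550 and ZAT7 were low in Col too, and UGT71D1 (57.2) and SCPL49 (242) were high there, so that none of these 5 genes was called the same way against Col. ATU2AF35A, higher than in Ler, stood at 32.8 against 51.9 in Col (-0.64, adjusted p = 0.054).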

How the data were processed

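Per the submitters' processing notes, the authors used MAS5 to make the deposited values, linear intensities of 1 channel. The sources used here do not give its version or scaling. Readings with exactly 3 decimals (7913 cells, 1668 on the 7 arrays) hold a point between digit groups and were multiplied by 1000, since no other reading exceeds 999.9. Deposited medians of the 7 arrays ran from 13.2 to 29.4, so each array was brought to the same median. The tests kept probe sets above 12.8 (40th percentile) on at least 3 arrays, and log2 was taken after adding 1.23 (10th percentile). The number of arrays limits the precision.

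One limma 3.58.1 model (R 4.3.3, lmFit, contrasts.fit, eBayes with trend) held all 37 arrays with 1 mean per group and no covariate. It was checked on simulated data. Python 3.11.15 (pandas 2.3.3, matplotlib 3.10.9, numpy 2.4.6) made tables and figures. Ler was taken as main wild type. GEO's platform annotation pairs 3794 probe sets with 1 gene and 70 with several and leaves 4383 unlisted, and 3784 matched the TAIR10.1 gene table. Counts over genes use the brightest probe set of each locus.

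The text names the 15 highest and 15 lowest differences and up to 4 called members of each gene group. It also names every member of the microRNA target and small RNA groups and genes within 5 places of AT2G44120. Further members named for context, AOP3 among them, were chosen after their values were seen. The members and lists were chosen with earlier results of these data known. The 33 lists first written matched genes by patterns, which also caught chance strings in gene synonyms, so 24 groups formed from gene names replaced them after the files were seen. These groups hold only genes found on the array and are not complete. Of 2514 loci tested, 478 carry a symbol other than the locus name. Alternatives were other scalings, constants, filters and models, the digit groups as deposited, Col as wild type, a replicate block and each array left out. Deviations of ago1-10 and Ler arrays with the same letter in their titles correlated at -0.3, 0.17 and -0.18. With so few arrays these values cannot decide whether the letters pair the arrays.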

Additional observations from a re-analysis of the deposited data

Results flagged for a closer look

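In 4 probe sets 1 ago1-10 array stood far from the other 3, which chance does in about 1 of 20 groups of this size. With 85 named probe sets, several such cases are expected by chance. AT4G38900 read 6.26 on replicate 2 against 11.9 to 12.7 on the others, and ZAT7 read 6.96 on replicate 3 of its dimmer probe set against 0.15 to 0.226, all near background. RCA read 3551 on replicate 4 against 2932 to 2954. UGT74D1 read 4.07 on replicate 1 against 10.4 to 11.9.

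Among the genes named in the text 12 had effects that differed between 9 and 21 days by the interaction test. The change, 9-day less 21-day difference, was 3.17 for COR15B, 1.92 for AT2G35820 and 1.56 for ATU2AF35A. It was -2.56 for AT1G23130, -2.45 for AT2G32150, -2.19 for APS4, -1.75 for ATG8E, -1.74 for EXGT-A3 and -1.73 for ATPMEPCRD. It was -3.26 for XTH33, -3.89 for ChiC and -2.59 for CHI, and these chitinase genes, not called at 9 days, were higher in ago1-10 at 21 days (3.97, adjusted p = 8.6e-05, and 3.25, adjusted p = 9.7e-05, limma). XTH33 fell at 9 days (-1.51) and was higher in ago1-10 at 21 days (1.75, adjusted p = 0.012). COR15B (2.24 at 9 days, -0.93 at 21 days) and ATU2AF35A (0.87 and -0.69) also changed sign between ages, and AT2G32150 (0.01 at 21 days), ATPMEPCRD (0.02 at 21 days) and APS4 (-0.07 at 9 days) did so with 1 value near 0.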

How the results depend on the processing

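Of 959 called probe sets 916 held with 16 added. Other scalings, constants, filters and models gave 865 to 1019 calls, digit groups as deposited 766, and leaving out 1 array gave 537 to 884. Calls that were higher numbered 388 as reported, 482 of 993 with trimmed mean scaling, 454 of 972 with quantile normalization and 758 of 1495 against Col. Values were 110 with the replicate block on title letters (45 named calls ended) and 1495 with Col as wild type. The block model held only the 7 arrays, and letters B and D each occur in a single genotype. It has little power, and whether the letters mark a shared batch is not known. The test between ages gave 119 with only the groups compared and 119 to 473 without 1 array, and the test between alleles 424 to 1022 without 1 array. Photosynthesis genes lower, 10 as reported, numbered 4 with quantile normalization, 2 with digit groups as deposited, 1 with the replicate block, 2 against Col and 7 to 9 without 1 array. Of 71 named calls 45 were kept with each array left out. Against Col the sign turned for XTH33 (1.01), ATG8B (-0.82), ATU2AF35A (-0.64), LYC (0.04), ZAT7 (0.33 on its dimmer probe set) and ATPMEPCRD (0.19). With digit groups as deposited, which leaves those readings 1000 times too low, it turned for AT2G16586 (4.02), HPR (1.83), COR47 (1.77), AT3G15450 (4.21), PGY2 (-8.20), OSM34 (-7.10), AT4G16260 (-6.61), PSAE-1 (7.44), AT1G49500 (1.02), KIN2 (2.03 and 5.98), AT4G33720 (-4.01), AT1G09200 (-6.39) and PSB27 (0.97). Low signal limits differences of genes under 12.8, as for 92 risers in Ler and 89 fallers in ago1-10.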

Other observations

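Groups not described above had few calls. Among 9 bZIP factor genes 2 fell, AT2G40620 (-0.82, adjusted p = 0.038, limma) and AT4G38900 (-0.86, adjusted p = 0.028), and BZIP34 averaged 27.8 in Ler and 11.5 in ago1-10 without passing (-1.25, adjusted p = 0.09). The first call ended without Ler replicate 2 or 3 or ago1-10 replicate 3 or 4 (adjusted p from 0.069 to 0.25), the second without Ler replicate 2 or 3 or ago1-10 replicate 2 (0.079 to 0.12). Of 12 histone and cell division genes TOPII, a DNA topoisomerase, was called (1.68, adjusted p = 0.032), but its Ler arrays read 16.2, 0.949 and 3.41 and its ago1-10 arrays 7.12, 21.9, 26.4 and 18.4, which overlap. The call ended without any 1 array but replicate 1 of either genotype (adjusted p from 0.061 to 0.29) and with 16 added (0.053). The histone H3 gene AT1G09200 averaged 867 and 1151 (0.30), and AUR2, an Aurora kinase, 37.4 and 55.3 (0.60), and neither passed.

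Of 5 aldehyde dehydrogenase genes ALDH3F1 rose (0.86, adjusted p = 0.043), from 91.6 to 169.7, and of 12 ubiquitin pathway genes UBC16, a conjugating enzyme, fell (-1.02, adjusted p = 0.03), from 40 to 19.3. The first call ended without any 1 array but ago1-10 replicate 3 (adjusted p from 0.059 to 0.13), the second without Ler replicate 2 or 3 or ago1-10 replicate 3 or 4 (0.063 to 0.15). Of 16 genes for sulfur, glucosinolate and glutathione metabolism limma called 0, with 1 higher and 1 lower at an unadjusted p under 0.05, and of 4 methionine sulfoxide reductase genes it called 0, with 1 lower at that level. AOP3, a glucosinolate gene, averaged 432 in Ler and 520.2 in ago1-10 (0.24, adjusted p = 0.75) and was higher in ago1-10 than in Col by 5.62 (adjusted p = 1.2e-12).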
